A study of Mus musculus with 4 samples.

Results

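A set of 9 genes used to recognise resident large peritoneal macrophages was followed through single-cell libraries of ascites from tumour-bearing mice. The genes are Gata6, Adgre1, Timd4, Vsig4, Selp, Icam2, Prg4, Cd5l and Alox15, out of 29835 gene symbols that the 4 libraries list together, and all 9 were found by symbol. Levels are given as CPM, a gene's UMIs scaled to the total UMIs of the cells read in the usual way, where a UMI (unique molecular identifier) marks 1 captured transcript. They were read in myeloid cells, gated by at least 3 UMIs of Lyz2 and Csf1r together with at most 1 UMI of the CD3 chains, 2 of Cd79a and Cd79b and 2 of the keratins Krt7, Krt8, Krt18 and Krt19. Tumour cells, gated by at least 5 UMIs of those keratins and Wt1 with no Ptprc UMI, served as the background.

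The study asked whether BTYNB, a small-molecule inhibitor of the RNA-binding protein IGF2BP1, adds to antibody blockade of the checkpoint receptor PD-1. ID8-Trp53-/- cells, a mouse ovarian surface epithelial tumour line without Trp53 that all groups share, were placed in the peritoneal cavity of C57BL/6 mice, and treatment began after 7 days. The control group received DMSO with the IgG isotype antibody, the BTYNB group BTYNB with that isotype antibody, the anti-PD-1 group DMSO with the PD-1 blocking antibody, and the combination group BTYNB with the PD-1 blocking antibody. Per the labels the dose of BTYNB was 50 mg/kg and that of either antibody 100 ng, while the study's methods give other amounts, and ascites was taken at about 3 mL. Ascites cells of several animals were pooled for each treatment, so every group is 1 library, there is no replicate check and no test between groups was possible. All intervals are 95% exact intervals that cover counting error only.

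Large peritoneal macrophages are the main resident phagocytes of the peritoneal cavity. They seed the cavity early in life, renew themselves there and depend on the transcription factor GATA6, which retinoic acid from mesothelial and omental cells helps to maintain. They clear dying cells and carry little MHC class II, whereas small peritoneal macrophages derive from blood monocytes and carry much of it.

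The libraries differed before any member was read. After filtering, the combination library held 7042 cells, control 7834, anti-PD-1 12019 and BTYNB 18283, with 78381082 to 112091098 UMIs each. BTYNB cells reached down to 869 UMIs, whereas the lowest cell of the other libraries held 3533 to 5115, so shares of cells with a UMI were read after thinning each cell to 3500 UMIs, which left out 1070 gated BTYNB cells and none elsewhere. The myeloid gate held 1180 combination cells (16.8% of the library), 289 control cells (3.69%), 376 anti-PD-1 cells (3.13%) and 2949 BTYNB cells (16.1%), and the tumour gate 3602 to 10917 cells. Libraries shared 0 to 4 cell labels.

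The make-up of the gated cells differed too. The 4 neutrophil genes summed to 1951 CPM in BTYNB and 412 in control, against 36.8 in combination and 50.9 in anti-PD-1. The 10 monocyte genes summed to 5557 CPM in BTYNB and to 1696 to 2149 elsewhere, and the 6 dendritic cell genes to 387 CPM in combination and 303 in BTYNB against 44.7 in control and 75.2 in anti-PD-1. Lists of T, B, NK, mast and eosinophil genes each summed to at most 12.997 CPM, with the eosinophil gene Epx at 0 UMIs in every library. The 11 pan-macrophage genes, led by the gate gene Lyz2, Apoe, C1qc and C1qb, summed to 13419.6 CPM in BTYNB and up to 25277.5 CPM in anti-PD-1. The part of these mixtures in the values below was not tested beyond the narrower gates named with them.

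Promoter sequence from RefSeq (build GRCm38.p6) was at hand for 4 of the 9 members, from 250 bases before to 50 bases after each gene's start. The deposited counts were made on GRCm39 per the submitters' processing notes and carry no coordinates. Because the members include a GATA factor, each window was searched on both strands for 4 motifs, TGATAA or AGATAA and their forms that end in G instead of the last A. Cd5l (chr3:87357631-87357930, plus strand) held 3 matches, which begin 127 and 31 bases before the start and at base 3 after it. Timd4 (chr11:46810549-46810848, plus strand) held 1, which begins at base 6. Selp (chr1:164115014-164115313, plus strand) and Vsig4 (chrX:96293389-96293688, minus strand) held none of these letters. A match is common, found in 29.8% of all 32851 promoter windows of this length. The windows with a match are shown, as the members that a GATA factor could be read against, with the motif on either strand in capitals.
Cd5l: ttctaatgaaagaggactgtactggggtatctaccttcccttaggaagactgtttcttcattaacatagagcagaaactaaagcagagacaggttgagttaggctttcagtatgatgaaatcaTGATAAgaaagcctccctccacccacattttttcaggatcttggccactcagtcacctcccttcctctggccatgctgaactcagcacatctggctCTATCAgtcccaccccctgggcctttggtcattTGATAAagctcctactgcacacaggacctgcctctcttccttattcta
Timd4: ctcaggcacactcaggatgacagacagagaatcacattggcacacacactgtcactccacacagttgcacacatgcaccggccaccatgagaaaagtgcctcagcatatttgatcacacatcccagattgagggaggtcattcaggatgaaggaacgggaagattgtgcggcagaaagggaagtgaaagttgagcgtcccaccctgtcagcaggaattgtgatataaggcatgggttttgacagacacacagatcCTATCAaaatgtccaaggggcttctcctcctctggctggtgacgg

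Gata6 was carried mostly by the tumour. In tumour cells it was at 359 CPM in combination, 221 in anti-PD-1, 287 in control and 376 in BTYNB. In gated myeloid cells it was at 42.5 CPM (38.4 to 47.0) in combination, 62.2 (50.9 to 75.3) in anti-PD-1, 58.8 (47.9 to 71.5) in control and 13.7 (11.9 to 15.7) in BTYNB. The myeloid level was the lower of the pair in every library, by 3.55-fold in anti-PD-1 and up to 27.4-fold in BTYNB, and only 0.441% to 1.65% of a library's Gata6 UMIs lay in gated myeloid cells. In BTYNB, cells with CD3 or CD79 UMIs held 32.0 and 33.9 CPM, more than the gated myeloid cells. A Gata6 UMI in a myeloid cell can therefore not be told apart from tumour RNA by its level alone.

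The other 8 members were higher in gated myeloid than in tumour cells of all 4 libraries, with Prg4 in BTYNB so through 1 cell. Without that cell, left out after seeing the data, Prg4 was at 2.09 (1.43 to 2.95) CPM in BTYNB myeloid cells, against 3.75 in BTYNB tumour cells. The tumour value keeps a cell with 54 of its 217 UMIs, so the myeloid level is not read as the lower of the pair. Adgre1, which encodes the macrophage surface protein F4/80, was at 163 CPM (155 to 171) in combination, 121 (105 to 139) in anti-PD-1, 151 (133 to 171) in control and 116 (110.2 to 121) in BTYNB. It was the most even member between libraries, and tumour cells held 0.294 to 0.9501 CPM. Thinned, 29.0% to 31.8% of gated cells held an Adgre1 UMI, against at most 0.284% of tumour cells.

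**Figure D1:**
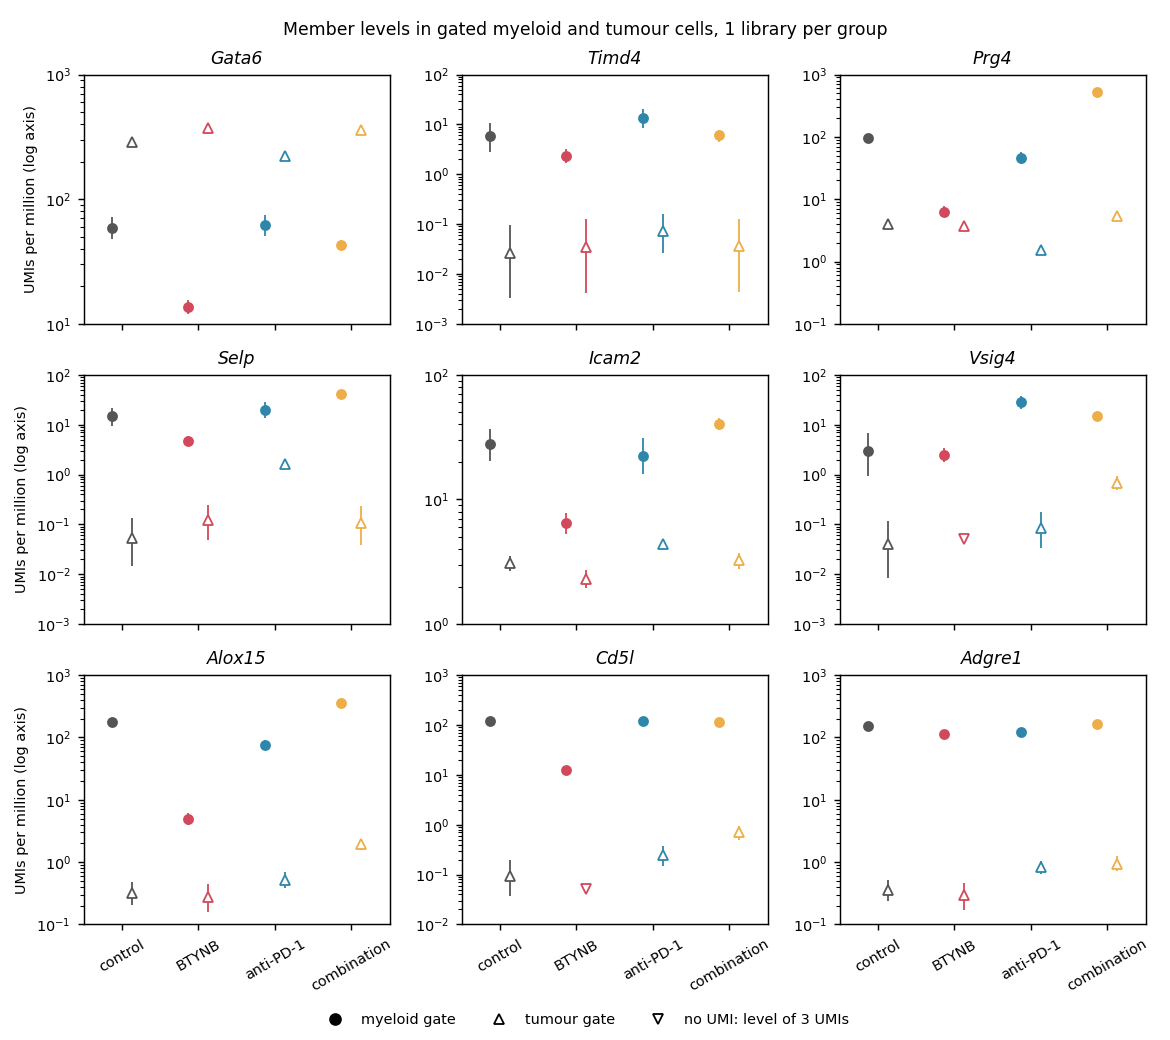
Level of each member in CPM (log axis) in gated myeloid cells (filled circles) and gated tumour cells (open triangles) of the 4 libraries, with 95% exact Poisson intervals; a downward triangle marks a gene without a UMI, drawn at the level of 3 UMIs. Gata6 is higher in tumour cells, at 221 to 376 CPM, the other 8 members are higher in myeloid cells (Prg4 in BTYNB through 1 cell), and Prg4 and Alox15 span the widest range, from 6.32 and 4.96 CPM in BTYNB to 519.7 and 352 in combination.

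The receptors Timd4 and Vsig4 were read from few cells. Timd4 (TIM-4), which binds phosphatidylserine on dying cells, was at 6.00 CPM (4.51 to 7.83) in combination, 13.6 (8.63 to 20.4) in anti-PD-1, 5.88 (2.82 to 10.8) in control and 2.35 (1.64 to 3.25) in BTYNB, from 27, 11, 5 and 20 cells with a UMI. BTYNB cells in no gate held 2.50 (1.92 to 3.19) CPM, a level that the interval of its myeloid cells covers. Vsig4, a complement receptor of resident macrophages, was at 14.7 CPM (12.3 to 17.4) in combination, 28.4 (21.0 to 37.7) in anti-PD-1, 2.94 (0.955 to 6.86) in control and 2.48 (1.75 to 3.40) in BTYNB. It was carried by 13, 7, 2 and 4 cells, in the same order, and 1 BTYNB cell held 26 of the 38 UMIs there. Neither receptor was highest in combination, and both levels turn on a handful of cells.

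The adhesion genes had their highest values in combination, where Icam2 still overlapped control. Selp encodes P-selectin, also found on platelets and endothelium, and was at 41.7 CPM (37.5 to 46.1) in combination, 20.1 (13.9 to 28.1) in anti-PD-1, 14.7 (9.52 to 21.7) in control and 4.69 (3.67 to 5.91) in BTYNB. In BTYNB this was no more than in CD3, CD79 and ungated cells, at 6.26, 6.27 and 5.97 CPM. Tumour cells held 0.0534 to 0.121 CPM except in anti-PD-1, where 133 UMIs in 116 cells gave 1.61 CPM. Icam2, an integrin ligand of leukocytes and endothelium, was at 40.3 CPM (36.3 to 44.7) in combination, 22.5 (15.9 to 30.9) in anti-PD-1, 27.6 (20.3 to 36.8) in control and 6.46 (5.25 to 7.86) in BTYNB. In BTYNB it was higher in CD3 cells (11.4 CPM) and CD79 cells (13.1 CPM) than in myeloid cells, so neither adhesion gene marked the myeloid gate of that library.

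The secreted proteins and the lipoxygenase spanned the widest range. Prg4, which encodes the lubricant lubricin, was at 519.7 CPM (505 to 535) in combination, 46.2 (36.5 to 57.7) in anti-PD-1, 94.1 (80.1 to 109.9) in control and 6.32 (5.13 to 7.72) in BTYNB. A single cell held 65 of the 97 Prg4 UMIs in BTYNB and another 59 of the 78 in anti-PD-1, where 11.3 (6.79 to 17.6) CPM were left without it, whereas the top 10 cells held 22.1% of the UMIs in combination. Alox15, the 12/15-lipoxygenase, was at 352 CPM (339.7 to 364) in combination, 75.8 (63.2 to 90.1) in anti-PD-1, 175 (156 to 196) in control and 4.96 (3.90 to 6.20) in BTYNB. Cd5l, the secreted protein AIM that keeps macrophages alive and scavenges lipids, was at 115 CPM (108 to 122) in combination, 118 (103 to 136) in anti-PD-1, 119 (104 to 137) in control and 12.6 (10.9 to 14.6) in BTYNB. Combination, control and anti-PD-1 overlapped in Cd5l, with BTYNB below them, while Prg4 and Alox15 differed between all 4 libraries beyond counting error. Counting error leaves out the spread between cells, and in control the top 10 cells held 93.75% of the Prg4 and 73.5% of the Alox15 UMIs. A difference between control and anti-PD-1 in these 2 genes is therefore not established. Combination tumour cells held Alox15 at 1.92, Cd5l at 0.699 and Vsig4 at 0.681 CPM, above tumour cells of the other libraries.

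Shares of cells with a UMI did not always go with the levels. After thinning, Alox15 was found in 12.0% of combination, 12.5% of control, 10.1% of anti-PD-1 and 0.745% of BTYNB gated cells. For Cd5l the shares were 14.8%, 12.1%, 16.2% and 1.60%. For Prg4 they were 10.8% in combination, 4.50% (2.42 to 7.57) in control and 2.39% (1.10 to 4.50) in anti-PD-1, where the latter intervals overlap. Its 0.479% in BTYNB lay at the 0.429% of BTYNB tumour cells and is read as background. The 157 combination cells with Alox15 held 3167 UMIs of it and the 47 control cells 298, so the levels differed in UMIs per positive cell while the shares at this depth overlapped. Median depth before thinning was 4204 to 7059 UMIs in gated myeloid and 7161 to 15232.5 UMIs in tumour cells.

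Cells with several members were counted next. Of thinned cells, 2 or more of the 8 members other than Adgre1 were found in 172 of 1180 in combination (14.6%, 12.6 to 16.7), 34 of 289 in control (11.8%, 8.29 to 16.1), 45 of 376 in anti-PD-1 (12.0%, 8.87 to 15.7) and 16 of 1879 in BTYNB (0.852%, 0.487 to 1.38). Without Gata6, whose UMIs can come from the tumour, the shares with 2 or more of 7 were 13.2%, 10.03%, 9.84% and 0.639%, in the same order. Tumour cells reached 0.206%, 0.0281%, 0.0458% and 0.0660% by that count. Combination, control and anti-PD-1 overlap at 2 or more members at this depth. BTYNB lies under all of them but, by the count without Gata6, above its tumour cells. No share expected for unlinked genes was computed, so these shares alone do not tell whether the members go together. Thinned to 1000 UMIs, the overlap ended, with 9.15% (7.57 to 10.9) in combination against 3.46% (1.67 to 6.27) in control and 2.66% (1.28 to 4.84) in anti-PD-1, and 0.136% (0.0372 to 0.349) in BTYNB. Within cells with at least 3 C1q UMIs, a gate chosen after seeing the data, combination reached 19.0% (16.5 to 21.7), which overlaps control at 13.8% (9.77 to 18.8) and lies above anti-PD-1 at 12.5% (9.29 to 16.4).

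At 4 or more of the 8 members, a count chosen after the values were seen, the order changed. It was reached by 80 of 1180 thinned cells in combination (6.78%, 5.41 to 8.37) and 6 of 289 in control (2.08%, 0.766 to 4.46). In anti-PD-1 it was reached by 2 of 376 (0.532%, 0.0645 to 1.91) and in BTYNB by 0 of 1879 (0%, 0 to 0.196). Without thinning, 106 combination, 9 control, 5 anti-PD-1 and 2 BTYNB cells reached it, which is 1.51%, 0.115%, 0.0416% and 0.0109% of all cells of those libraries. The combination share lies above the others beyond counting error. Since its animals were pooled, cells of 1 animal and of several cannot be told apart.

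**Figure D2:**
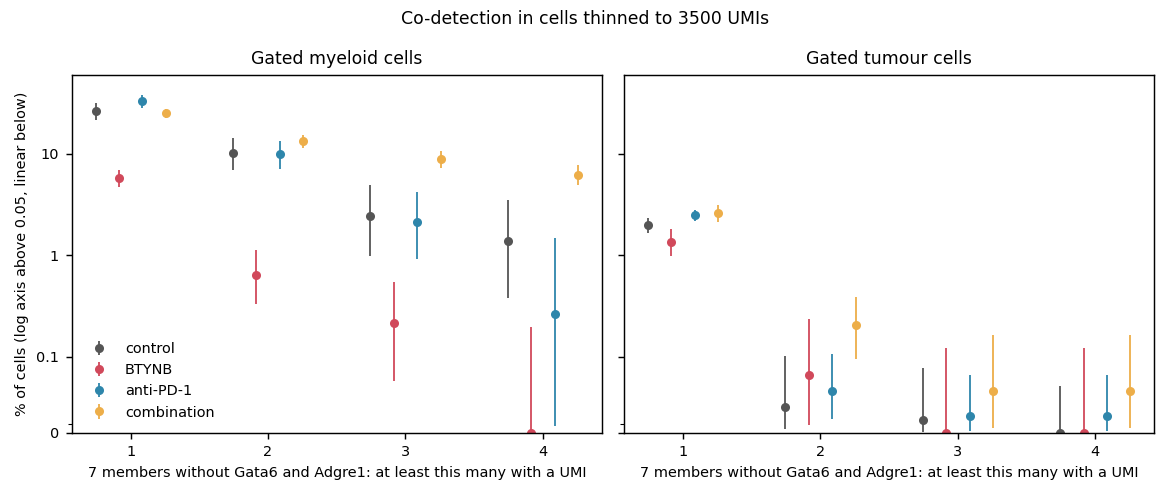
Share of cells (percent) with at least 1, 2, 3 or 4 of the 7 members other than Gata6 and Adgre1, in gated myeloid and tumour cells thinned to 3500 UMIs, by library, with 95% Clopper-Pearson intervals; the vertical axis is logarithmic above 0.05% and linear below. At 2 or more, combination, control and anti-PD-1 overlap (13.2%, 10.03% and 9.84%) above BTYNB (0.639%), and at 4 or more combination (6.19%) stands above control (1.38%) and anti-PD-1 (0.266%).

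In combination the pairing was tight around Prg4 and Selp. Of the 137 combination cells with a Prg4 UMI, 84.7% also held Cd5l, 78.8% Alox15, 66.4% Icam2 and 65.7% Selp, against 12.0%, 4.70%, 8.82% and 1.82% of the 1043 cells without it. Adgre1 was found in 81.8% against 43.2%, and Gata6 in 44.5% against 18.4%. Of the 109 combination cells with Selp, 82.6% held Prg4, 82.6% Cd5l, 78.9% Alox15, 70.6% Icam2 and 87.2% Adgre1. In the other libraries Prg4 was in 7 of 14 control, 4 of 22 anti-PD-1 and 1 of 53 BTYNB cells with Selp, and Cd5l in 7, 7 and 0 of them. Of cells with Prg4, 11 of 18 in control, 7 of 11 in anti-PD-1 and 3 of 21 in BTYNB held Alox15. Of 13 combination cells with Vsig4, 12 held Cd5l and 10 held Prg4. Timd4 was looser, with Alox15 in 18.5% of its 27 cells against 13.2% of the others, and Cd5l in 25.9% against 20.3%. The 106 combination cells with 4 or more members were 8.98% of the gate and held 95.7% of its Prg4, 93.1% of Selp, 91.5% of Alox15 and 90.2% of Vsig4 UMIs, but 46.7% of Cd5l, 40.7% of Timd4 and 28.7% of Gata6 UMIs. These genes define the cells, so the shares only describe how concentrated each one is.

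Gata6 and Adgre1 were then read in cells sorted by the other 7 members, a sorting that used neither gene. In combination, Gata6 was at 31.9 (27.6 to 36.8) CPM in the 806 cells with none of the 7, 35.8 (26.7 to 46.9) in 187 cells with 1, 46.3 (32.4 to 64.1) in 86 cells with 2 or 3 and 131 (107 to 159) in 101 cells with 4 or more. Wt1, a transcription factor of tumour and mesothelium, was at 95.6 CPM with none and 65.7 with 4 or more. Gata6 UMIs per Wt1 UMI were 0.334 (0.282 to 0.394) with none, 0.456 (0.322 to 0.639) with 1, 0.783 (0.492 to 1.24) with 2 or 3 and 2 (1.42 to 2.85) with 4 or more, against 0.407 (0.400 to 0.413) in tumour cells. Cells with none of the members held no more Gata6 for their Wt1 than the tumour did, and cells with 2 or more held more.

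In control the ratio was 0.367 (0.272 to 0.489) with none, 1.33 (0.516 to 3.58) in 30 cells with 2 or 3 and 3.5 (0.666 to 34.5) in 7 cells with 4 or more, against 0.381 in tumour cells. The latter intervals lie above the tumour ratio, although they rest on 12 and 7 Gata6 UMIs. In anti-PD-1 it was 0.340 (0.254 to 0.451) with none, 0.407 (0.182 to 0.849) with 2 or 3 and 0.5 (0.0809 to 2.34) in 3 cells with 4 or more, and these intervals cover the 0.335 of its tumour cells. BTYNB cells with none held 0.210 (0.179 to 0.246), below the 0.406 of its tumour cells and near the 0.229 and 0.212 of its CD3 and CD79 cells. The 30 BTYNB cells with 2 or 3 held 0.429 (0.0715 to 1.88), from 3 Gata6 and 7 Wt1 UMIs, too few to show an excess or its absence. An excess of Gata6 over the tumour's proportion was thus detectable in combination and control and not in anti-PD-1. In BTYNB it could not be read at this depth.

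Adgre1 was higher in cells with more members. In combination it was at 101 (92.8 to 109) CPM with none of the 7, 119.8 (103 to 139) with 1, 185 (156 to 218) with 2 or 3 and 690.1 (633 to 750.5) with 4 or more. In control it was at 115 (96.2 to 137) with none and 922 (672 to 1233) with 4 or more, the latter from 45 UMIs. In BTYNB, 30 cells with 2 or 3 of the 7 held 83.4 (55.0 to 121) against 118 (112 to 124) with none, so no such order was seen there.

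**Figure D3:**
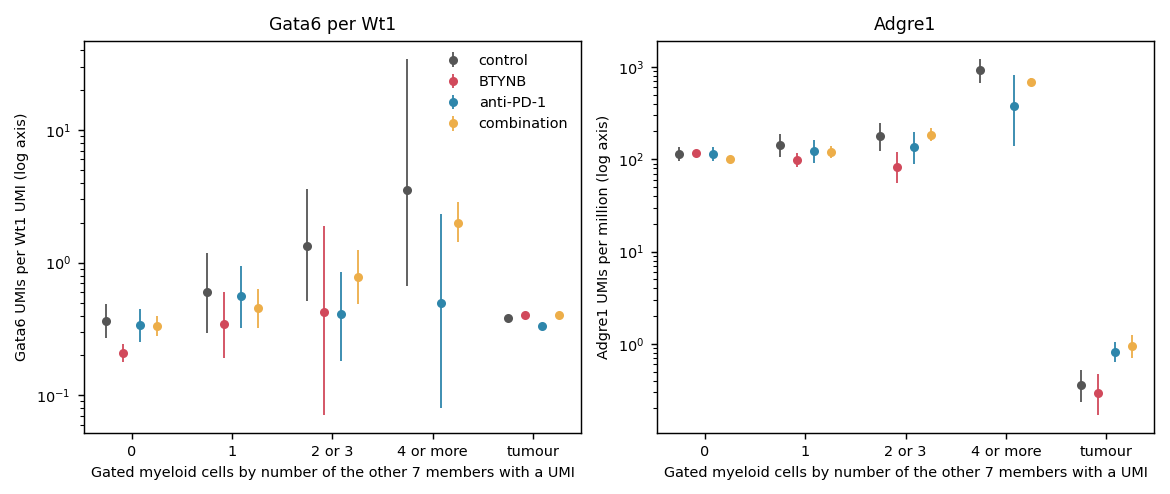
Gata6 UMIs per Wt1 UMI (log axis) and Adgre1 level in CPM (log axis) in gated myeloid cells, by how many of the 7 members other than Gata6 and Adgre1 held a UMI, and in gated tumour cells, by library with 95% counting intervals. The combination ratio is 0.334 with none and 2 with 4 or more against 0.407 in tumour cells, and combination Adgre1 is at 101 and 690.1 CPM.

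Splitting gated cells by Adgre1, Ly6c2 and Retnla placed the members. Ly6c2 marks classical monocytes, and Retnla is high in monocyte-derived, alternatively activated macrophages. Cells with 2 or more Adgre1 UMIs were 26.2% of combination, 19.7% of control, 11.702% of anti-PD-1 and 15.0% of BTYNB gated cells. In combination, 86 of these 309 cells (27.8%) held 4 or more members, against 20 of the 871 others (2.30%). The log2 ratio of Adgre1-high over other cells in combination was 6.05 (4.79 to 7.70) for Vsig4, 4.33 (4.20 to 4.46) for Prg4, 4.31 (4.15 to 4.47) for Alox15, 3.75 (3.35 to 4.17) for Selp and 0.51 (0.19 to 0.81) for Gata6. In control it was 5.26 (4.46 to 6.16) for Prg4, 2.89 (2.46 to 3.34) for Cd5l and -0.52 (-1.39 to 0.26) for Gata6. In BTYNB, Cd5l was higher in Adgre1-high cells (1.10 (0.65 to 1.54)) and Selp lower (-1.997 (-3.91 to -0.57), 4 against 68 UMIs). The BTYNB Prg4 ratio of 4.13 comes from 78 UMIs, which include the cell with 65. In anti-PD-1 it was 5.54 (4.61 to 6.61) for Prg4, from 67 UMIs that include the cell with 59, 2.07 (1.12 to 2.97) for Vsig4 and 1.41 (0.79 to 1.99) for Alox15. Timd4 had 0 UMIs against 23 there. Apart from Adgre1, the remaining members had intervals that covered 0 in these libraries.

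Ly6c2 cells were 18.4% of combination, 12.8% of control, 9.84% of anti-PD-1 and 46.1% of BTYNB gated cells. Cd5l was lower in them in every library, with log2 ratios of -1.33 (-1.68 to -0.999) in combination, -1.31 (-2.29 to -0.47) in control, -1.57 (-2.91 to -0.50) in anti-PD-1 and -1.41 (-1.96 to -0.89) in BTYNB. Alox15 was lower in combination (-1.65 (-1.86 to -1.44)) and control (-1.77 (-2.70 to -0.98)) and higher in anti-PD-1 (1.10 (0.39 to 1.75)). Prg4 was lower in combination (-1.38 (-1.55 to -1.23)) and control (-3.03 (-5.32 to -1.46)). In BTYNB it was higher (2.66 (1.93 to 3.47)), from 78 against 19 UMIs, with the cell of 65 among the 78. Vsig4 had 0 UMIs against 132 in combination. Gata6 was higher in Ly6c2 cells in control (1.46 (0.79 to 2.09)) and BTYNB (0.68 (0.28 to 1.09)) and showed no difference beyond counting error in combination (-0.18 (-0.60 to 0.22)) or anti-PD-1 (0.26 (-0.75 to 1.13)).

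In combination, Retnla and most members lay in largely separate cells, and in control this was seen for Prg4, Alox15, Cd5l and Icam2. Of the 178 combination cells with 3 or more Retnla UMIs, 1 (0.562%) held 4 or more members, against 105 of 1002 others (10.5%). The log2 ratio of Retnla-high over other cells in combination was -5.93 (-6.99 to -5.05) for Alox15, -4.02 (-4.43 to -3.64) for Prg4, -3.34 (-4.67 to -2.28) for Selp, -2.27 (-3.15 to -1.50) for Icam2 and -1.55 (-1.94 to -1.18) for Cd5l, and Vsig4 had 0 UMIs there against 132. In control it was -4.99 (-8.04 to -3.13) for Alox15, -4.43 (-7.49 to -2.56) for Cd5l and -2.27 (-5.36 to -0.34) for Icam2, from 2 UMIs each in Retnla-high cells. For Prg4 it was -5.09 (-10.4 to -2.60), from 1 UMI. The control intervals of Gata6, Timd4, Selp and Vsig4 covered 0. Adgre1 differed least, at -0.53 (-0.76 to -0.30) in combination. In anti-PD-1, 19 cells were Retnla-high, with 0 UMIs of Alox15 against 128 in the others and 0 of Prg4 against 78, while Cd5l (0.05 (-1.03 to 0.96)) and Timd4 (1.56 (-0.83 to 3.32)) showed no difference beyond counting error. In BTYNB, 2 of 95 Retnla-high cells (2.11%) held 2 or more of the 8 members against 38 of 2854 others (1.33%), at median depths of 7124 and 4249 UMIs. Prg4 was at 0.85 (-0.40 to 1.89), Timd4 at 1.69 (-0.03 to 3.07), Gata6 at 0.52 (-0.38 to 1.30), Selp at 0.24 (-1.68 to 1.66) and Alox15 at -0.28 (-2.59 to 1.33). Icam2 was at -2.29 (-7.61 to 0.22), Cd5l at -1.24 (-3.13 to 0.14), and Vsig4 had 0 UMIs against 38. All these intervals cover 0, so BTYNB neither showed nor excluded a separation.

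Genes that took no part in counting the members were read in the 106 combination cells with 4 or more of the 8 members and the 660 with none, at median depths of 7208 and 6977 UMIs. Both classes come from 1 library and were sorted by measured values, so the folds are a description. Of 6043 genes with at least 100 UMIs in either class, 3.64% were 2-fold or more higher and 10.2% were 2-fold or more lower in the cells with 4 or more on a log2(CPM + 1) scale, with a median of -0.09.

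Genes of the wider peritoneal macrophage programme were mostly higher there. Of 20 listed, 15 passed that filter, of which 14 were 2-fold higher and 0 lower, with a median log2 ratio of 3.70. Serpinb2, a protease inhibitor, was at 764 against 0.818 CPM. Slpi, a secreted inhibitor of leukocyte proteases, was at 4483 against 18.0 CPM, and the acute-phase gene Saa3 at 7238 against 163 CPM. The coagulation factor gene F5 was at 514 against 25.4 CPM, the scavenger receptor gene Marco at 244 against 8.79 CPM and Ltbp1, which binds latent TGF-β, at 263 against 2.86 CPM. Cxcl13, a B cell attracting chemokine, had 85 UMIs against 0, at least 167-fold higher against a floor of 3 UMIs. The matrix genes Thbs1 and Fn1 were 13.1-fold and 7.80-fold higher and the integrin chain Itgam 4.15-fold, while Bhlhe40 was at 376 against 238 CPM.

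The 9 control cells with 4 or more members carried many of these genes. Serpinb2 had 20 UMIs in them and 0 in the 156 control cells with none, Slpi was at 2948 against 79.7 CPM, F5 at 399.8 against 47.8 CPM and Garnl3 at 133 against 11.4 CPM. Cxcl13 had 0 UMIs in these 9 cells. The 5 anti-PD-1 cells with 4 or more held 19 Serpinb2 and 6 F5 UMIs, and 0 of Garnl3 and Ltbp1, with 3 UMIs worth 125 CPM at their depth.

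Genes of small peritoneal and monocyte-derived macrophages were the reverse. Of 15 listed, 14 passed the filter, of which 0 were 2-fold higher and 13 lower, with a median of -2.99. The MHC class II genes were lower, with H2-Ab1 at 2628 against 9609.8 CPM, H2-Aa at 2199 against 7371 CPM, H2-Eb1 at 1241 against 6148 CPM and the invariant chain Cd74 at 3341 against 9643 CPM. The lectin gene Mgl2 was at 3.63 against 582 CPM, Retnla at 16.9 against 2201 CPM and the chemokine receptor gene Ccr2 at 45.9 against 1376 CPM. Cd226, an adhesion receptor gene, had 0 against 474 UMIs, at least 26.7-fold lower. Folr2, a folate receptor of tissue macrophages, was at 68.9 against 61.5 CPM, and Clec10a at 35.0 against 108 CPM. In control, H2-Ab1 was at 3265 against 6353 CPM and Ccr2 at 16.7 against 1347 CPM.

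**Figure D4:**
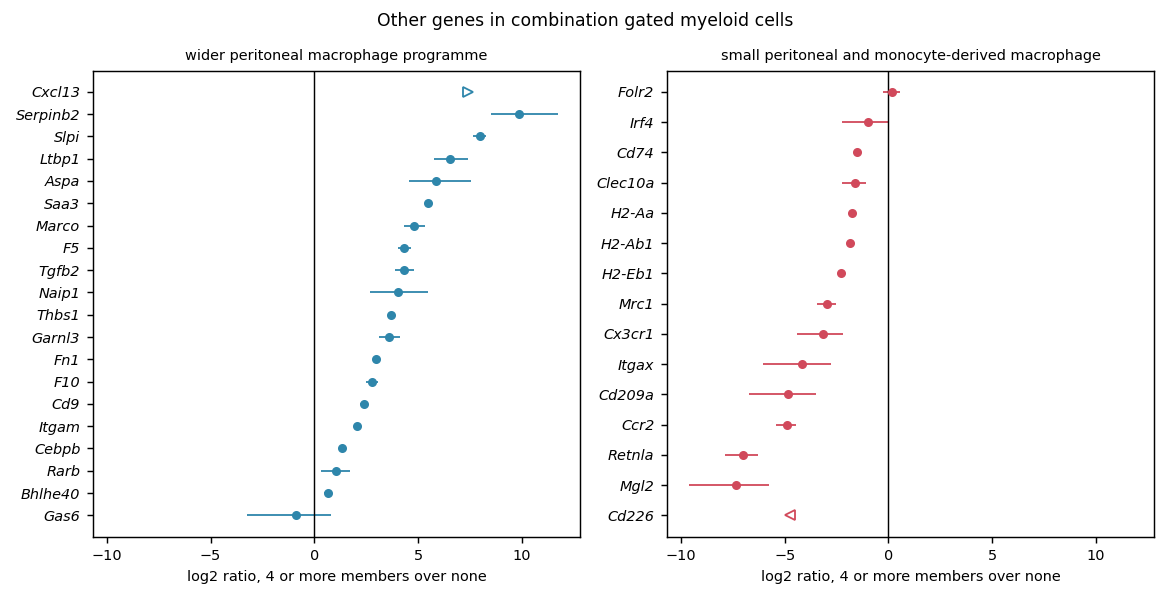
Log2 ratio of level in the 106 combination gated cells with 4 or more of the 8 members over the 660 with none, for the wider peritoneal macrophage programme (left) and for small peritoneal and monocyte-derived macrophage genes (right), with 95% counting intervals; open triangles are limits from a floor of 3 UMIs. Most genes on the left are above 0, up to Serpinb2 at 9.87, and most on the right below 0, down to Mgl2 at -7.33.

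Other lists were read in the same cells. Of 11 pan-macrophage genes 7 were 2-fold higher and 0 lower (median 1.28), or 6 of 9 and 0 (median 1.38) without Lyz2 and Csf1r, on which the gate rests, with Lyz2 at 16583 against 6805 CPM, Apoe at 4623 against 887 CPM and C1qc at 4562 against 1641 CPM. Of 9 uptake genes besides Timd4, 6 passed the filter, of which 2 were higher and 0 lower (median 0.45), the receptor gene Mertk at 139 against 53.0 CPM and its ligand gene Pros1 at 143 against 38.6 CPM, with Cd36 at 421 against 282 CPM, Stab1 at 74.9 against 80.0 CPM and Axl at 102 against 189 CPM. Of 7 integrin and adhesion partners 3 were higher and 0 lower (median 0.96), with Itga6 at 1077 against 37.6 CPM, Itgb2 at 1581 against 673 CPM, Itgb1 at 804 against 412 CPM and Itga4 at 203 against 194 CPM. Of 8 monocyte genes 1 was higher and 6 lower (median -1.41), with Plac8 at 236 against 520.4 CPM and F13a1 at 72.5 against 187 CPM. All 4 dendritic cell genes compared were lower (median -4.01), with Xcr1 at 13.3 against 253 CPM. None of 3 tumour and mesothelial genes compared passed 2-fold (median -0.41), of which Krt19 is capped by the gate. Pf4, listed for platelets and also made by macrophages, was at 228 against 33.3 CPM, while Ppbp had 0 and Itga2b 2 UMIs in the cells with 4 or more.

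Few genes listed for the retinoic acid pathway, a list that also holds Wt1, had enough UMIs to compare. Of 11 listed, 4 passed the filter, of which 0 were higher and 1 lower (median -0.25), Aldh1a2, an enzyme that makes retinoic acid, at 10.9 against 72.4 CPM. Aldh1a1 was at 38.7 against 41.1 CPM, the receptor gene Rara at 72.5 against 51.1 CPM and Wt1 at 64.0 against 85.3 CPM. The receptor gene Rarb, a known target of retinoic acid, was at 29.0 against 14.1 CPM (log2 ratio 1.04, 0.30 to 1.73) from 24 and 69 UMIs, under the filter, and Stra6, a retinol transporter gene, at 29.0 against 14.3 CPM. Tumour cells of combination held Aldh1a1 and Stra6 at 872 and 293 CPM.

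A ranking of 960 genes outside the members by likeness gave related names. Thinned cells with 2 or more of the 8 members were set against those with none, and each gene took its lowest log2 ratio, on a log2(CPM + 10) scale, over combination (172 and 796 cells), control (34 and 183) and anti-PD-1 (45 and 216). BTYNB had 16 cells with 2 or more and was not used. The top 10 were Ly6a2, Slpi, Padi4, Saa3, Ednrb, Marco, Wfdc17, Fcna, Ptgis and Ltc4s, from 2.56 down to 1.11. Ly6a2 was at 314 against 9.69 CPM in combination, 252 against 18.7 in control and 597 against 92.6 in anti-PD-1. Ednrb, an endothelin receptor gene, was at 759 against 57.4, 462 against 96.8 and 305 against 82.0, and Ltc4s, which makes leukotriene C4, at 518 against 106, 513 against 131 and 349 against 156. In all 10 genes the anti-PD-1 library gave the lowest ratio.

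Between libraries, the members in gated myeloid cells were lowest in BTYNB. These ratios compare libraries, not treatments, the pairs share libraries, and fewer cells of a kind and fewer transcripts per cell are not separated in them. With BTYNB over control, the log2 ratio was -5.14 (-5.53 to -4.78) for Alox15, -3.90 (-4.27 to -3.52) for Prg4, -3.24 (-3.53 to -2.95) for Cd5l, -2.10 (-2.45 to -1.74) for Gata6 and -2.10 (-2.61 to -1.57) for Icam2. It was -1.65 (-2.32 to -0.93) for Selp, -1.33 (-2.37 to -0.15) for Timd4, -0.39 (-0.58 to -0.19) for Adgre1 and -0.25 (-1.59 to 1.46) for Vsig4. Of the 5 members with 100 UMIs in either library 4 were 2-fold or more lower and 0 higher, where 5.18% of 9048 genes were lower and 4.24% higher. Their median was -3.14 and that of all genes -0.02, and since a member passes this filter where it is high, all 9 are given. Of 10 monocyte genes 7 were higher and 0 lower (median 1.68), with Ly6c2 at 111 CPM in combination, 40.9 in anti-PD-1, 81.2 in control and 519 in BTYNB, and Chil3 at 17.1 CPM in combination, 7.70 in anti-PD-1, 60.6 in control and 242 in BTYNB. The tumour and mesothelial genes, which move with Gata6, summed to 111 CPM in BTYNB and 235 in control.

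The order held in narrower gates. Within cells with at least 3 C1q UMIs, a gate chosen after seeing the data to leave out most monocytes and dendritic cells, BTYNB over control was -4.72 for Alox15, -3.42 for Prg4, -2.72 for Cd5l and -2.71 for Selp. Within cells with at least 2 Adgre1 UMIs it was -6.85, -3.90, -4.07 and -4.81. Leaving out cells with over 2 UMIs of the neutrophil genes S100a8 and S100a9, it was -5.12, -3.86, -3.22 and -1.88. These 4 members were lower in BTYNB in each gate. Vsig4, whose interval covers 0, was at 0.28 within the C1q gate.

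With anti-PD-1 over control, few genes differed. Of 5 members compared 2 were 2-fold or more lower, Alox15 (-1.21 (-1.52 to -0.91)) and Prg4 (-1.03 (-1.44 to -0.63)), and 0 higher, where 0.788% of 3173 genes were lower and 0.914% higher, with medians of -0.31 and -0.07. Taking only cells without keratin UMIs, Prg4 was at -0.20, and with at least 2 Adgre1 UMIs at -0.22. The latter rests on 67 anti-PD-1 UMIs, which include the single cell with 59. The highest cell of each library was also left out of the whole gate, after seeing the data. Prg4 was then at 11.3 (6.79 to 17.6) CPM in anti-PD-1 and 65.0 (53.4 to 78.3) in control. Cd5l (-0.01 (-0.30 to 0.28)), Gata6 (0.08 (-0.33 to 0.49)), Icam2 (-0.30 (-0.95 to 0.35)) and Selp (0.45 (-0.33 to 1.26)) did not differ beyond counting error, and Adgre1 was at -0.32 (-0.59 to -0.05). Vsig4 (3.27 (1.95 to 4.96)) and Timd4 (1.21 (0.08 to 2.45)) were higher, from 48 against 5 and 23 against 10 UMIs, below the filter.

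With combination over anti-PD-1, the members split. Of 8 compared 3 were 2-fold or more higher, Prg4 (3.49 (3.17 to 3.83)), Alox15 (2.21 (1.96 to 2.48)) and Selp (1.05 (0.54 to 1.60)), and 0 lower, where 3.33% of 7921 genes were higher and 2.17% lower, with medians of 0.62 and 0.00. Icam2 was at 0.84 (0.36 to 1.36), Adgre1 at 0.42 (0.21 to 0.64) and Cd5l at -0.04 (-0.26 to 0.18). Gata6 (-0.55 (-0.86 to -0.22)), Vsig4 (-0.95 (-1.44 to -0.45)) and Timd4 (-1.18 (-1.91 to -0.41)) were lower. The summed levels of the receptors thus did not go with those of Prg4 and Alox15 between these libraries, from 13 against 7 cells with Vsig4 and 27 against 11 with Timd4. Within combination, 10 of the 13 cells with Vsig4 held Prg4 and 10 held Alox15. The tumour and mesothelial genes went with Gata6, at 188 CPM in combination against 373 in anti-PD-1, and their part in its ratio was not tested. Within cells without keratin UMIs Timd4 was at 0.077 and Gata6 at -0.14, and within cells with at least 2 Adgre1 UMIs Gata6 was at 0.59, so the direction of both turned or vanished with the gate.

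With combination over BTYNB, all 9 members were higher. The ratio was 6.36 (6.07 to 6.67) for Prg4, 6.15 (5.82 to 6.50) for Alox15, 3.18 (2.96 to 3.41) for Cd5l, 3.15 (2.78 to 3.53) for Selp and 2.64 (2.32 to 2.98) for Icam2. It was 2.57 (2.03 to 3.13) for Vsig4, 1.64 (1.39 to 1.89) for Gata6, 1.35 (0.72 to 2.004) for Timd4 and 0.50 (0.39 to 0.60) for Adgre1. Of 8 members compared 7 were 2-fold or more higher and 0 lower, where 1.93% of 9116 genes were higher and 1.24% lower, with medians of 2.69 and -0.02. Of 10 monocyte genes 0 were higher and 7 lower (median -1.78).

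**Figure D5:**
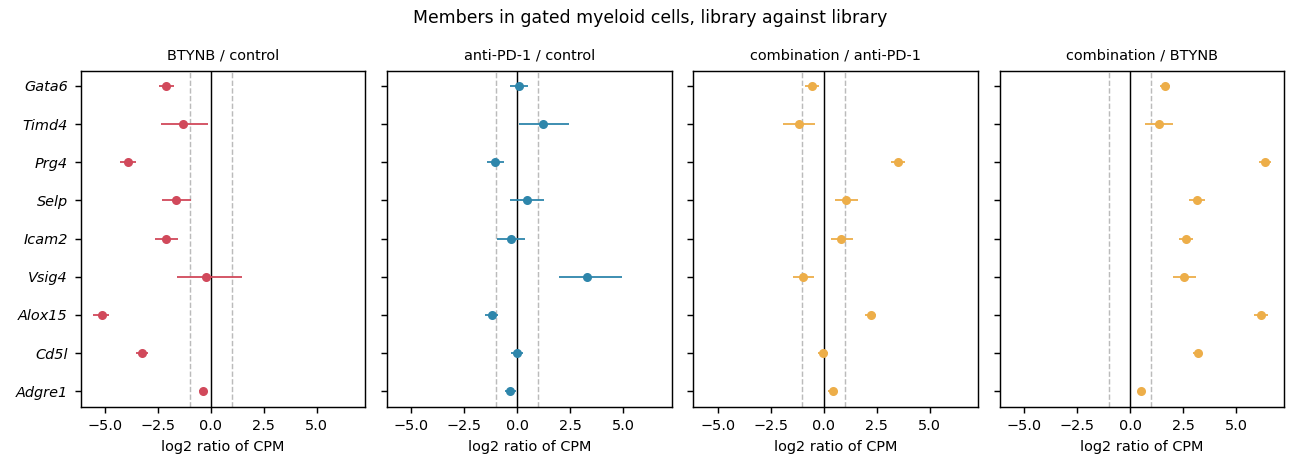
Log2 ratio of each member's level in gated myeloid cells between libraries, with 95% counting intervals; dashed lines mark 2-fold. All members are below 0 with BTYNB over control, from -0.25 (Vsig4) to -5.14 (Alox15), and above 0 with combination over BTYNB, from 0.50 (Adgre1) to 6.36 (Prg4).

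The wider programme went only partly with the members. With BTYNB over control 0 of 13 genes compared were higher and 6 lower (median -0.93), with anti-PD-1 over control 1 of 10 was higher and 0 lower (median 0.19), with combination over anti-PD-1 2 of 16 were higher and 2 lower (median -0.03), and with combination over BTYNB 11 of 17 were higher and 0 lower (median 1.34). Serpinb2 was at 72.0 CPM in combination, 13.03 in anti-PD-1, 21.8 in control and 0.261 in BTYNB, with the order of Prg4. Saa3 was at 1474 CPM in combination, 3981 in anti-PD-1, 1272 in control and 273 in BTYNB, and Marco at 51.7 CPM in combination, 201 in anti-PD-1, 140.0 in control and 9.78 in BTYNB, both highest in anti-PD-1. Fn1 was at 1678 CPM in combination, 2166 in anti-PD-1, 1797 in control and 646 in BTYNB, and Thbs1, lowest in combination and highest in BTYNB, at 681 CPM in combination, 749 in anti-PD-1, 812 in control and 1099.8 in BTYNB.

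Genes of other macrophages were read in the same pairs of libraries. Of the small peritoneal and monocyte-derived genes, 1 of 15 was higher and 2 lower with BTYNB over control (median 0.49), 1 of 11 higher and 3 lower with anti-PD-1 over control (median 0.042), 7 of 15 higher and 1 lower with combination over anti-PD-1 (median 0.72), and 3 of 15 higher and 0 lower with combination over BTYNB (median -0.0057). H2-Ab1 was at 8149 CPM in combination, 6487 in anti-PD-1, 5249.5 in control and 8148 in BTYNB, and Folr2 at 116 CPM in combination, 237 in anti-PD-1, 95.3 in control and 44.9 in BTYNB, highest in anti-PD-1. Of 11 pan-macrophage genes 1 was higher and 1 lower with BTYNB over control (median -0.29), and 0 differed 2-fold with anti-PD-1 over control or with combination over anti-PD-1. Uptake genes were lower for 2 of 8 with BTYNB over control (median -0.84), and Mfge8, a bridging protein for dying cells, was at 13.2 CPM in combination, 31.4 in anti-PD-1, 30.001 in control and 11.3 in BTYNB. Retinoic acid genes were lower for 4 of 8 with BTYNB over control (median -0.95), and Aldh1a1, which the tumour carries, was at 43.0 CPM in combination, 101 in anti-PD-1, 41.2 in control and 16.0 in BTYNB.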

How the data were processed

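Ascites cells of 4 treatment groups were captured on the BD Rhapsody platform, 1 pooled library per group. The deposited values are raw UMI counts per gene and cell, which the authors made with the BD Rhapsody pipeline, on GRCm39 per the labels, with cells as that pipeline called them. Each library was read as deposited. Cells with fewer than 200 genes or more than 33% mitochondrial UMIs were removed, 24 to 956 cells per library by the latter. Members were matched by gene symbol. Levels are summed counts of the gated cells of a library over their total, with exact Poisson intervals, shares have Clopper-Pearson intervals, and ratios have intervals from the exact binomial. A count of 0 was set against a floor of 3 UMIs. Ratios across all genes used genes with at least 100 UMIs in either library and a pseudocount of 1 CPM, and 2-fold was the threshold. No p-value was computed, since each group has 1 library. Shares of cells were read after thinning to 3500 UMIs with a fixed seed. Doublets were handled by the upper limits on other lineages' genes in the gates, and an alternative removed the top 5% of cells by scrublet score, which took 23 of 1180 gated combination cells and 2 of the 106 with 4 or more members. The fold-change step was run on simulated independent counts with median-of-ratios scaling. The ratios reported here scale by total UMIs, so that run does not test them.

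The members, lists and gates were chosen with earlier results of these data known. From each list the text names the 4 genes with the most UMIs or those that differed in both contrasts of an agent, where the list bears on a result, and genes outside that rule, such as Serpinb2, Slpi and Itga6, were chosen after their values were seen. Alternatives changed the gate, thinning depth, gene filter, pseudocount and scaling. Python 3.11.15, numpy 2.4.6, scipy 1.17.1, pandas 2.3.3, scanpy 1.11.5 and matplotlib 3.10.9 were used. Promoters came from a RefSeq table on GRCm38.p6. The values of a gene in the monocyte list are not reported here.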

Additional observations from a re-analysis of the deposited data

Results flagged for a closer look

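For 5 members the difference that goes with an agent had opposite signs in the libraries without and with the other agent. The difference between the log2 ratios was not tested, since each group is 1 library, and it is the same number whichever agent is taken first. For Prg4 it was 7.39, with BTYNB over control at -3.90 and combination over anti-PD-1 at 3.49, and with anti-PD-1 over control at -1.03 and combination over BTYNB at 6.36. For Alox15 it was 7.36, with -5.14 and 2.21 for BTYNB and -1.21 and 6.15 for anti-PD-1. For Icam2 it was 2.94 (-2.10 and 0.84 for BTYNB), for Selp 2.70 (-1.65 and 1.05 for BTYNB) and for Adgre1 0.81 (-0.39 and 0.42 for BTYNB, -0.32 and 0.50 for anti-PD-1). The BTYNB library also differs from the others in its lowest cell depth of 869 UMIs and in neutrophil and monocyte genes, and the part of this in the sign changes was not tested.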

How the results depend on the processing

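Each group is 1 library, so leaving out a replicate was not possible, and the depth of the 289 control and 376 anti-PD-1 gated cells limits every member read from few UMIs. No paired analysis was possible because each group holds 1 library and no test was run. Of the member ratios under alternative settings, 314 stayed within their counting interval and 79 moved beyond it. A 2-fold ratio changed sign in 1 case, Timd4 with combination over anti-PD-1, which was 0.077 within cells without keratin UMIs against -1.18 otherwise. Among smaller ratios that did so was Gata6 with combination over anti-PD-1, at 0.59 within cells with at least 2 Adgre1 UMIs against -0.55, and the cause of either was not tested. The share of gated cells with 2 or more of the 8 members, thinned to 1000 UMIs, was 9.15% in combination, 2.66% in anti-PD-1, 3.46% in control and 0.136% in BTYNB, since fewer UMIs per cell are read. Without thinning it was 16.6% in control and 18.7% in combination. Within cells with at least 3 C1q UMIs, a setting chosen after seeing the data, it was 19.0% in combination, and the cause was not tested. With a filter of 20 UMIs, which tests more genes, 749 were 2-fold higher and 993 lower with BTYNB over control, 159 and 159 with anti-PD-1 over control, 583 and 462 with combination over anti-PD-1, and 317 and 194 with combination over BTYNB. With a pseudocount of 10 CPM, which shrinks low genes, the counts were 149 and 246, 19 and 16, 124 and 81, and 71 and 56. With a pseudocount of 1 CPM they were 384 and 469, 29 and 25, 264 and 172, and 176 and 113, and median-of-ratios scaling left each within 1.5 times. The share of cells in the myeloid gate moved beyond its interval in 9 of 20 settings and libraries.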
